A study of Mus musculus with 10 samples.

Results

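RNA recovered with an antibody against IMP2 from skeletal muscle of wild-type (WT) mice was compared with RNA recovered with the same antibody from muscle of IMP2 knockout (KO) mice, across all genes. The samples were chosen by their file labels, WT.IP and KO.IP, and came to 4 of the 10 libraries of the series: 2 immunoprecipitation (IP) libraries of WT muscle and 2 of KO muscle. The other 6 are total RNA, 3 of KO and 3 of WT muscle, and are used here only as a side reading. All mice carried the C57BL/6 background, were male and 6 weeks old, and had been fed a high-fat diet for 2 weeks, KO and WT alike. The KO animals are labelled IMP2 null, while the growth description speaks of muscle with or without IMP2, so whether the deletion covers the whole animal was not settled by the labels. The antibody was home-made. No label says that libraries came from separate animals, so the spread between 2 libraries of a genotype may be technical, and p-values measure only that spread.

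IMP2, the product of Igf2bp2, is an RNA-binding protein of the insulin-like growth factor 2 mRNA-binding family. It contacts RNA through RRM and KH domains, and members of the family are known to influence the stability, localisation and translation of mRNAs such as Igf2. In an RNA immunoprecipitation, the tissue without the protein shows what the antibody and the beads retain in the absence of their target, so the KO IP libraries serve here as the antibody background. The comparison asks which transcripts, and which classes of transcripts, differ between the WT IP and that background.

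The WT IP libraries held 2159115 and 2547124 reads assigned to genes, and the KO IP libraries 917462 and 4037480. The files list 43629 genes, of which 18022 had a count in at least 1 IP library and 10730 passed the filter on low counts (filterByExpr) and were tested. Levels are read counts scaled to library size (CPM) after TMM normalisation, and log2 differences are WT IP minus KO IP with their standard error (SE). Where a gene had no count, up to 3 counts remain possible, or 1.39 and 1.18 CPM in WT IP and 3.27 and 0.743 CPM in KO IP before TMM scaling, a limit of counting error only. The 10 muscle fibre markers, such as Acta1 and Ckm, summed to 122182 and 150130 CPM in WT IP and 119844 and 91104 CPM in KO IP, so the labelled tissue was present in each. Transcripts of pancreatic islets such as Ins2, which muscle is not known to make, were also present, at 49.3 and 385 CPM in WT IP and 418 and 160 CPM in KO IP, and at 2244 CPM in the first KO total RNA library.

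Igf2bp2 (chromosome 16, 22059009 to 22163299, minus strand, GRCm38) was sparse, with 28 and 4 counts in WT IP, against 9 and 25 in KO IP. Total RNA held 21, 19 and 21 of its reads in KO, against 35, 37 and 48 in WT. The WT total RNA libraries were deeper. After scaling, the levels were 2.33, 1.75 and 2.31 CPM in KO and 2.32, 2.67 and 3.15 CPM in WT, which overlap. The KO minus WT difference in total RNA was -0.36 ± 0.28 (edgeR's quasi-likelihood test, adjusted p = 0.897). The IP groups overlapped, with a difference of 0.02 ± 0.78 (adjusted p = 0.995), so the transcript does not separate the IP genotypes; gene-level counts cannot show whether the reads fall inside the deleted part. Its paralogs were near the floor: Igf2bp1 had 0 counts in both WT IP libraries and 0 and 2 counts in KO IP, and Igf2bp3 had 1 and 0 counts in WT IP and 0 in both KO IP libraries.

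No gene passed the test between WT IP and KO IP. After Benjamini-Hochberg adjustment in edgeR's quasi-likelihood test, 0 of 10730 genes (0%) were called at 0.05. Without adjustment, 518 genes (4.83%) had p under 0.05 with higher levels in WT IP and 610 (5.68%) with lower levels in WT IP. DESeq2 called 57 genes and limma-voom 3. Without the first WT IP library 136 genes were called, without the second 59, without the first KO IP library 146 and without the second 13, each time with a lone library assumed to vary like the other group. Both WT IP libraries lay above both KO IP libraries for 2182 genes (20.3%) and below both for 2231 (20.8%). These shares are the background for every class count that follows. An exact two-sided permutation test of a single value, 2 libraries against 2, cannot go below p = 0.333. With library size as the only scaling, the median difference of all genes was -0.16, against -0.01 with TMM, and the genes with p under 0.05 came to 244 higher and 904 lower, so class medians are read against the median of all genes.

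**Figure D1:**
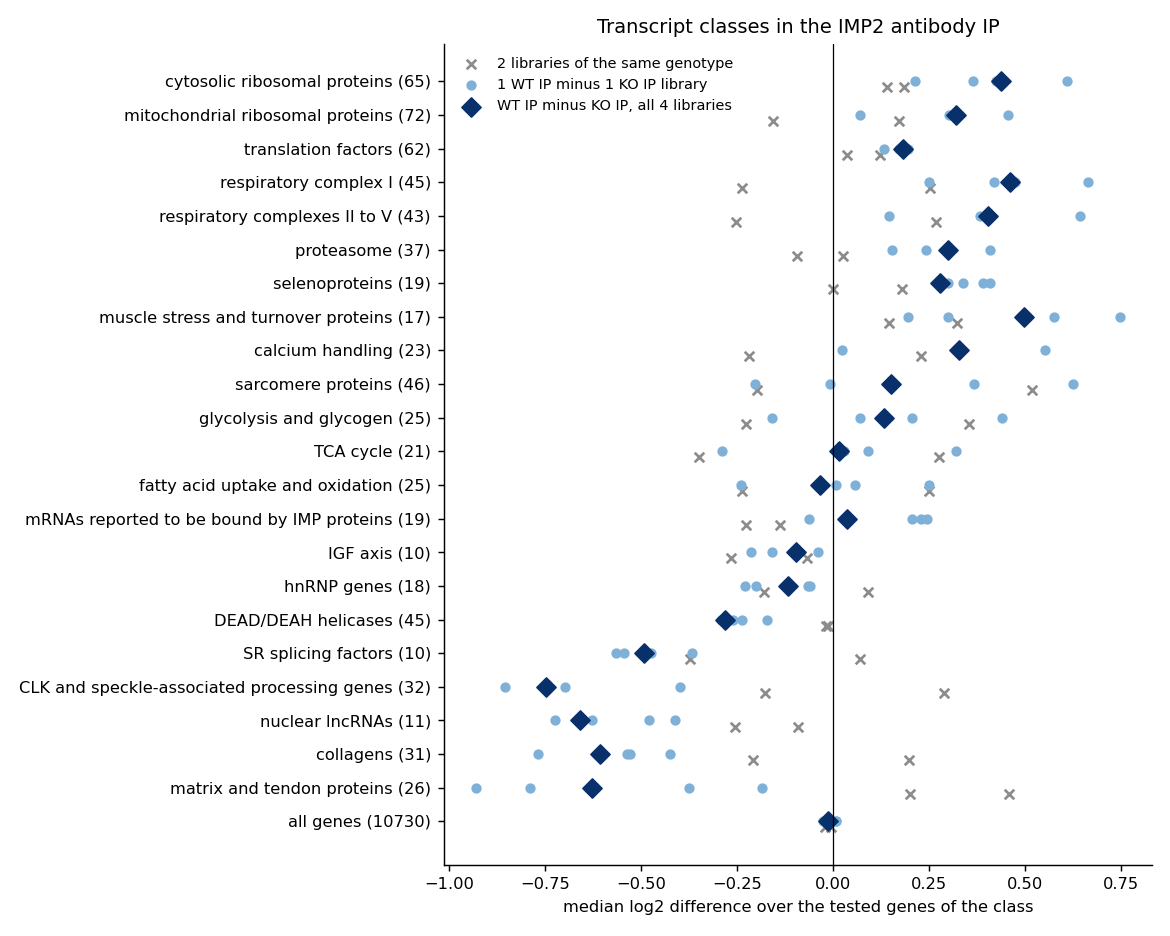
Median log2 difference (horizontal axis) over the tested genes of each transcript class, with the number of genes in brackets. Diamonds are WT IP minus KO IP from all 4 libraries, circles each of the 4 pairs of 1 WT IP and 1 KO IP library, and crosses the differences between libraries of the same genotype. All 4 circles lie below 0 for the CLK and speckle class, the nuclear long noncoding RNAs and the collagens and above 0 for the ribosomal proteins, while the circles of the sarcomere proteins lie on both sides of 0, from -0.20 to 0.62, with crosses at -0.20 and 0.52.

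Several classes of RNA processing genes had medians below that of all genes. A class of 32 genes built around the CLK kinases, which phosphorylate splicing factors, and around proteins of nuclear speckles had a median difference of -0.75, against -0.01 for all genes. All 32 were tested; 19 had p under 0.05 on the lower side in WT IP and 0 on the higher side, and for 25 both WT IP libraries lay below both KO IP libraries, against 1 above. The list, like the others, was chosen with earlier results of these data known, so its counts describe the class and are no test. The 4 pairs of a WT IP and a KO IP library gave medians of -0.85 to -0.40, beyond the largest difference between libraries of the same genotype, 0.29. Many mRNAs of this class are known to keep introns and to stay in the nucleus.

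Rsrp1 (chromosome 4, 134923592 to 134927671, plus strand), which encodes an arginine- and serine-rich protein, had 420.0 and 321 CPM in WT IP, against 1164 and 908 CPM in KO IP. The groups do not overlap, and the difference of -1.48 ± 0.24 had the smallest p of all genes (adjusted p = 0.0992). Clk1 (chromosome 1, 58410189 to 58424066, minus strand), a kinase of SR proteins, had 130.2 and 81.6 CPM in WT IP, against 256 and 323 CPM in KO IP (-1.46 ± 0.26, adjusted p = 0.103). Ccnl2, a cyclin that takes part in splicing, had 201 and 169 CPM in WT IP, against 354 and 412 CPM in KO IP (-1.05 ± 0.22). The other members with non-overlapping groups included Luc7l2, Pnisr, Snrnp70, Rbm5, Tra2a, Clk3, Clk4 and Son, with differences of -1.35 (Pnisr) to -0.81 (Son). Zranb2 (0.30) and Gpatch8 (0.28) were the members with a positive difference.

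SR splicing factors, which bind exonic enhancers, had a median of -0.49 over 10 tested genes, with 4 at p under 0.05, all lower in WT IP. Srsf11 had 114 and 103 CPM in WT IP and 164 and 250.3 CPM in KO IP, and Srsf6 had 109 and 93.7 CPM in WT IP and 168 and 173 CPM in KO IP. The median was -0.78 when only genes of at least 20 CPM were kept. Their 4 library pairs ran from -0.57 to -0.37, and the KO IP libraries differed from each other by 0.37. The DEAD/DEAH helicases, which unwind RNA, had a median of -0.28 over 45 tested genes, with 8 lower and 0 higher at p under 0.05. With library size alone their median was -0.44, and that of all genes -0.16. Ddx39b, an export factor that the CLK and speckle class also lists, had 139 and 110.4 CPM in WT IP and 217 and 240.0 CPM in KO IP, and Ddx5, a splicing and transcription cofactor, stood at -0.56. Within that family Ddx3x (0.09) and Ddx6 (-0.21) lay closer to the median of all genes. The 18 tested hnRNP genes had a median of -0.12, with Hnrnpm at -0.76 ± 0.23 and 2 members lower at p under 0.05; the median was -0.26 without the first KO IP library.

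Long noncoding RNAs (lncRNAs) known to stay in the nucleus had a median of -0.66 over 11 tested genes of 15 listed, with 4 lower and 0 higher at p under 0.05. Neat1 (chromosome 19, 5824708 to 5845478, minus strand), the scaffold of paraspeckles, had 1438 and 1540.5 CPM in WT IP, against 4278 and 3649.7 CPM in KO IP, which do not overlap (-1.41 ± 0.23, adjusted p = 0.0992). Meg3, an imprinted lncRNA, had 376 and 361 CPM in WT IP, against 479 and 1103 CPM in KO IP, and the KO IP libraries lay far apart. Malat1, a speckle RNA, had a difference of -0.66 and also did not overlap. Kcnq1ot1 (0.03) and Ftx (0.12) stood near 0. The class median was -1.15 when only genes of at least 20 CPM were kept and -0.21 without a filter on low counts. The wider annotation class of lncRNAs did not share this: its 224 tested genes had a median of 0.07, with 10 higher and 10 lower at p under 0.05.

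**Figure D2:**
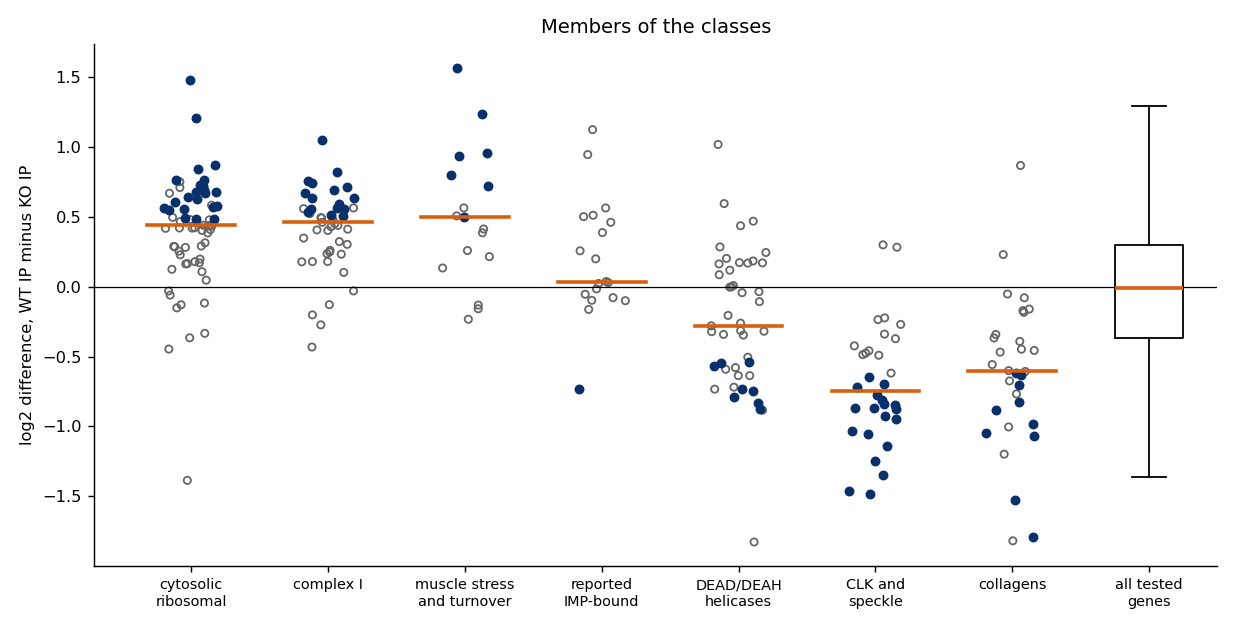
Log2 difference, WT IP minus KO IP (vertical axis), of each tested gene of 7 classes; filled points have unadjusted p under 0.05, open points do not, and orange lines are class medians. The box gives the quartiles of all 10730 tested genes, -0.37 and 0.30, with whiskers to 1.5 times the box. Filled points of the ribosomal, complex I and muscle stress classes all lie above 0 and those of the helicase, CLK and collagen classes all below 0.

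At the other end, mRNAs of the ribosome and of the respiratory chain had medians above that of all genes. The cytosolic ribosomal proteins, the building blocks of the ribosome, had a median of 0.44 over 65 tested genes of 85 listed, with 23 higher and 0 lower at p under 0.05. For 44 of them both WT IP libraries lay above both KO IP libraries, and for 3 below. Library pairs ran from 0.21 to 0.61, beyond the largest difference within a genotype, 0.18. Without the first WT IP library the median was 0.28. Rpl7 had 108 and 126 CPM in WT IP, against 72.9 and 57.3 CPM in KO IP (0.87 ± 0.25, adjusted p = 0.249), and Rps7 had 17.7 and 32.7 CPM in WT IP and 11.8 and 7.56 CPM in KO IP. Rpl5 (-1.39) and Rpl10a (-0.37) lay the other way, with WT IP below KO IP. Ribosomal protein genes have many processed copies in the genome, and 20 members were not tested, so counts of single members are uncertain where copies share reads.

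Ribosomal protein mRNAs are known to begin with a C followed by a run of pyrimidines (the TOP motif), which is read in translation control. The windows of 15 bases on either side of the annotated start (RefSeq, GRCm38.p6) were searched on the sense strand for a C followed by at least 5 C or T. The 4 windows below belong to members with p under 0.05, and capitals mark the longest such run.
Rps7 (chr12:28635939-28635968, minus strand): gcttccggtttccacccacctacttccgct
Rpl14 (chr9:120571502-120571531, plus strand): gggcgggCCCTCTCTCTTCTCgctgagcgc
Rplp2 (chr7:141447636-141447665, plus strand): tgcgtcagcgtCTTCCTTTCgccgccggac
Rps2 (chr17:24720048-24720077, plus strand): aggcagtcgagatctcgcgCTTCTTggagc
Of these, Rps7 has no run of that length in the window. The run was in 30 of 49 ribosomal protein windows (61.2%), in 27.6% of the windows of 8410 tested genes and in 22.5% of all 32851 windows of this length. Ribosomal members with and without it had close median differences, 0.43 and 0.42, and among other tested genes the medians were -0.03 with and -0.01 without it. A match describes these letters, and annotated starts can lie some bases off the true one.

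Mitochondrial ribosomal proteins, which build the ribosome inside mitochondria, had a median of 0.32 over 72 tested genes, with 11 higher and 2 lower at p under 0.05. Mrpl22 had 7.91 and 18.05 CPM in WT IP and 1.07 and 3.89 CPM in KO IP, while Mrpl47 went the other way with 26.98 and 32.2 CPM in WT IP and 62.2 and 57.9 CPM in KO IP. Without the second WT IP library the class median was 0.21. Library pairs ran from 0.07 to 0.46. The libraries of a genotype differed by up to 0.17, so the lowest pair lay within that spread. The 62 tested translation factors had a median of 0.18, with 7 higher and 2 lower. Eef2, the elongation factor that moves the ribosome along, had 999 and 979 CPM in WT IP and 663 and 608 CPM in KO IP, and Eif3f, an initiation factor subunit, had 321 and 345 CPM in WT IP and 213 and 205 CPM in KO IP. Eif2s3y, the Y-linked subunit gene of the initiator tRNA carrier, had 56.3 and 40.4 CPM in WT IP and 109 and 104 CPM in KO IP. Aminoacyl-tRNA synthetases, which charge tRNAs, had a median of -0.00 over 36 genes. Lars2 had 2500.2 and 4877 CPM in WT IP and 1985 and 2071 CPM in KO IP. Gene-level counts cannot show which part of Lars2 these reads cover, or whether they come from its mRNA. Cars had 39.1 and 27.5 CPM in WT IP and 75.1 and 63.4 CPM in KO IP.

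Nuclear-encoded subunits and assembly factors of respiratory complex I, the entry point of the chain, had a median of 0.46 over 45 tested genes. Of these, 16 had p under 0.05, all higher in WT IP, and 31 had both WT IP libraries above both KO IP libraries. Ndufa13 had 729 and 733 CPM in WT IP, against 456 and 412 CPM in KO IP (0.75 ± 0.21, adjusted p = 0.248). Ndufb7 had 459 and 527 CPM in WT IP and 292 and 296 CPM in KO IP, with little spread within either genotype. Complexes II to V had a median of 0.40 over 43 genes, with 14 higher and 0 lower. Cox4i1 and Cox6b1 encode subunits of cytochrome c oxidase; Cox4i1 had 1456 and 1691 CPM in WT IP and 1019.9 and 925 CPM in KO IP, and Cox6b1 had 596 and 673 CPM in WT IP and 430.0 and 347 CPM in KO IP. Library pairs ran from 0.25 to 0.66 for complex I and from 0.15 to 0.64 for complexes II to V, so the lowest pairs were no larger than the differences within a genotype, up to 0.25 and 0.27. Without the second WT IP or the second KO IP library the median of complexes II to V was 0.26. Genes encoded in the mitochondrial genome, 37 in all, are listed at 0 in each library and were not analysed here.

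The proteasome, which degrades tagged proteins, had a median of 0.30 over 37 tested genes, with 6 higher and 0 lower at p under 0.05 and library pairs of 0.15 to 0.41 against 0.09 within a genotype. Psma2 had 58.6 and 83.4 CPM in WT IP and 36.5 and 37.1 CPM in KO IP, and Psmb4 had 161 and 166 CPM in WT IP and 95.4 and 106 CPM in KO IP. Selenoproteins, whose mRNAs recode a stop codon as selenocysteine, had a median of 0.28 over 19 tested genes, with 5 higher and 0 lower. Selenok, a membrane protein of the endoplasmic reticulum, had 80.01 and 79.9 CPM in WT IP, against 27.9 and 35.5 CPM in KO IP (1.29 ± 0.27, adjusted p = 0.119). Gpx1 and Gpx4 encode glutathione peroxidases; Gpx1 had 174 and 159.8 CPM in WT IP and 99.7 and 93.9 CPM in KO IP, and Gpx4 had 89.8 and 116 CPM in WT IP and 66.5 and 45.1 CPM in KO IP. Selenop, the plasma carrier of selenium, stood at -0.36. Without the first KO IP library the selenoprotein median was 0.46.

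Among muscle genes, proteins of stress response and protein turnover had a median of 0.50 over 17 genes, with 7 higher and 0 lower at p under 0.05. Trim54 (chromosome 5, 31116712 to 31137630, plus strand), a ubiquitin ligase of the sarcomere, had 204 and 175 CPM in WT IP, against 77.2 and 82.7 CPM in KO IP. The WT IP libraries lay close together and well above both KO IP libraries (1.23 ± 0.23, adjusted p = 0.103). Ankrd1, a stretch-responsive partner of titin, had 50.2 and 88.9 CPM in WT IP and 30.03 and 19.7 CPM in KO IP (1.57 ± 0.34). Hspb7 and Hspb1 encode small heat shock proteins; Hspb7 had 1218 and 786 CPM in WT IP and 517 and 528 CPM in KO IP, and Hspb1 had 63.3 and 57.2 CPM in WT IP and 40.8 and 24.7 CPM in KO IP. In the same class Trim63 (0.13), Trim55 (-0.16) and Fbxo32 (0.51) had p above 0.05. The KO IP libraries differed by 0.32 in this class, so the lowest library pair, 0.20, lay within that spread.

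Calcium handling genes had a median of 0.33 over 23 tested genes (4 higher and 1 lower at p under 0.05). Jsrp1, a protein of the junction where excitation meets calcium release, had 1523 and 1651 CPM in WT IP and 959.8 and 962 CPM in KO IP. Without the second KO IP library the class median was 0.17, and without the second WT IP library 0.20. Library pairs ran from 0.02 to 0.55. The libraries of a genotype differed by up to 0.23, so the lowest pair lay within that spread. Sarcomere proteins had a median of 0.15 over 46 genes, with 7 higher and 2 lower. Des, which encodes the intermediate filament desmin, had 9079 and 7984 CPM in WT IP, against 4399 and 4741 CPM in KO IP. Slow-fibre genes such as Tnni1 (-1.82) and Tnnt1 (-1.23) had overlapping groups. The sarcomere median was 0.52 without the first KO IP library and -0.08 without the second, 0.27 without the first WT IP library and 0.00 without the second. Glycolysis had a median of 0.13 over 25 genes, fatty acid oxidation -0.03 over 25 and the TCA cycle 0.02 over 21, each with at most 3 genes at p under 0.05 in 1 direction. None of these 3 classes kept its sign in all 4 library pairs, and with 1 library left out they ranged from -0.04 to 0.34, from -0.16 to 0.10 and from -0.14 to 0.20.

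**Figure D3:**
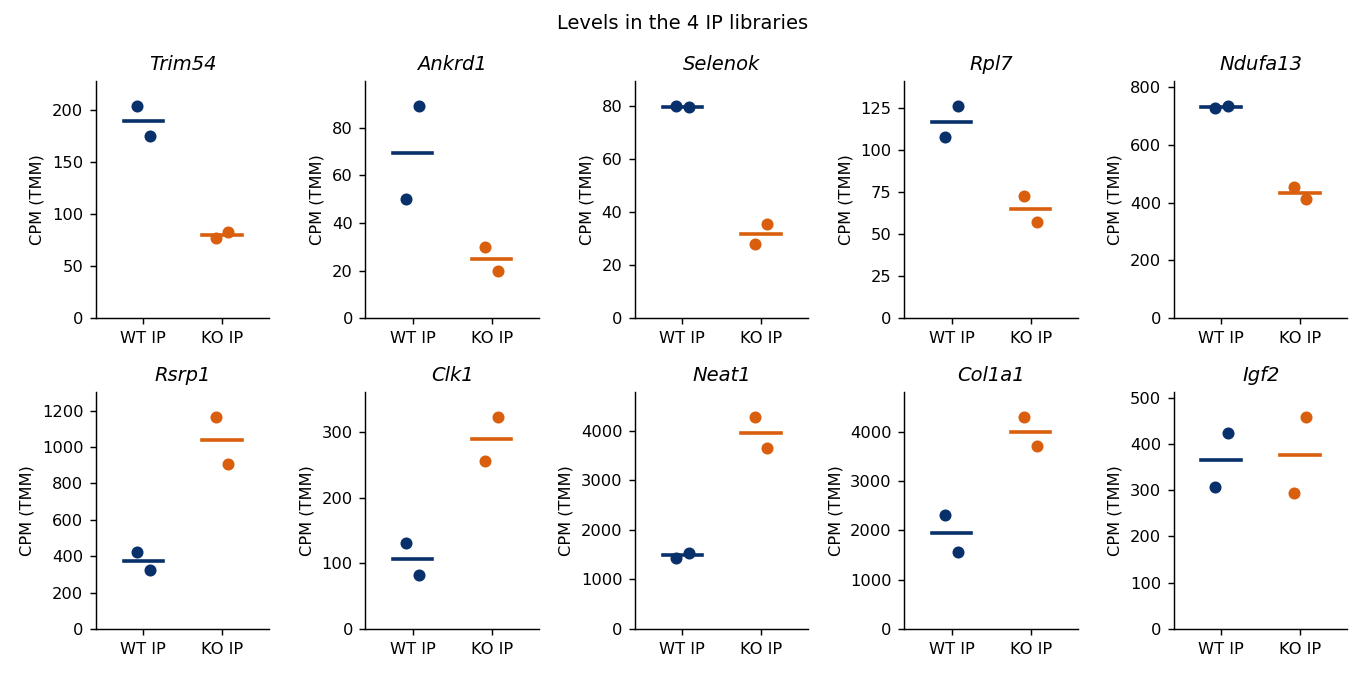
Level in CPM with TMM scaling (vertical axes, from 0) of 10 genes in each IP library, WT IP left of KO IP; points are libraries and bars the mean of 2. The libraries do not overlap in 9 genes, with WT IP above KO IP in the upper row and below it for Rsrp1, Clk1, Neat1 and Col1a1, while Igf2 overlaps.

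Extracellular matrix transcripts stood lower in WT IP. Collagens, the fibrous proteins of connective tissue, had a median of -0.61 over 31 tested genes of 44 listed, with 10 lower and 0 higher at p under 0.05, and 21 of them did not overlap, all with WT IP below. Col1a1 had 2325 and 1564 CPM in WT IP, against 4304 and 3719 CPM in KO IP (-1.05 ± 0.25, adjusted p = 0.178), and Col1a2 had 2781 and 2194 CPM in WT IP and 5733 and 4705 CPM in KO IP. Col7a1, the anchoring fibril collagen, had 22.8 and 24.1 CPM in WT IP and 87.9 and 51.5 CPM in KO IP. Other matrix and tendon proteins had a median of -0.63 over 26 tested genes, with 12 lower and 0 higher. Their library pairs ran from -0.93 to -0.18, and the WT IP libraries differed from each other by 0.46, so this class was less even than the collagens. Kera, a proteoglycan of tendon and cornea, had 17.7 and 27.9 CPM in WT IP, against 93.3 and 62.1 CPM in KO IP (-1.73 ± 0.32, adjusted p = 0.103). Chad, a cartilage matrix protein, had 26.05 and 7.73 CPM in WT IP and 179 and 36.2 CPM in KO IP, with the KO IP libraries far apart. Dcn and Fmod, small proteoglycans that bind collagen, stood at -0.72 and -1.10.

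Markers of several cell types were also lower in WT IP, while those of others were not. The 8 fibroblast markers, 3 of which are collagens, summed to 7157 and 5468 CPM in WT IP and 13110 and 11568 CPM in KO IP, with a median difference of -0.72. All 8 had a negative difference, and no marker was at 0 in any IP library. Most of the sum came from Col1a1, Col1a2 and Col3a1, so it largely repeats the collagen difference. Of the other members, Dcn (-0.72), Pi16 (-0.70) and Lum (-0.71) did not overlap, while Pdgfra (-0.14) and Dpt (-0.17) did. The 10 endothelial markers summed to 1256 and 1255 CPM in WT IP and 1463 and 2150 CPM in KO IP, with all 10 differences negative and none at 0. The 6 erythroid markers summed to 173 and 344 CPM in WT IP and 539 and 859 CPM in KO IP. Most of that sum came from the globin gene Hbb-bs. The 4 tested members, all globin genes, were lower in WT IP. Alas2 (1.86 and 2.15 CPM in WT IP, 0 and 0.687 CPM in KO IP) and Slc4a1 lay the other way. Both were at 0 in the first KO IP library, where up to 3.27 CPM remained possible before TMM scaling, so their direction is open. The tendon markers summed to 363 and 261 CPM in WT IP and 1091 and 432 CPM in KO IP. The KO IP libraries lay far apart. Of the 7 tested, 6 had a negative difference, while for Scx (0.51) both WT IP libraries lay above both KO IP libraries. In total RNA the fibroblast sum ranged from 3732 to 6508 CPM in KO and from 2951 to 4831 CPM in WT. Macrophage markers summed to 876 and 330 CPM in WT IP and 563 and 589 CPM in KO IP. In bulk tissue, fewer cells of a type and less RNA per cell cannot be told apart. In an IP, the share of a transcript also depends on what the antibody and the beads retain. The part of these cell types in the matrix difference was not tested.

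The 12 single genes with the smallest p on the higher side also included Trim54, Selenok and Ankrd1, described above. Nnat, an imprinted membrane protein, had 49.8 and 112 CPM in WT IP, against 18.2 and 24.96 CPM in KO IP. Spp1, the secreted protein osteopontin, had 124 and 17 counts in WT IP and 3 and 1 counts in KO IP. The WT IP libraries differed widely from each other, and macrophages, which also express Spp1, had the higher marker sum in the same first WT IP library; their part was not tested. Odc1, the first enzyme of polyamine synthesis, had 77.7 and 75.2 CPM in WT IP and 33.2 and 36.4 CPM in KO IP. Tnfrsf12a, the TWEAK receptor, had 51.2 and 43.4 CPM in WT IP and 22.5 and 16.5 CPM in KO IP, and Hbegf, a ligand of the EGF receptor, had 91.6 and 180.5 CPM in WT IP and 58.98 and 57.9 CPM in KO IP. Mbd3 (a subunit of the NuRD complex), D17Wsu92e, Mgst3 and Edf1 had differences of 0.96, 0.99, 1.18 and 0.98. Adjusted p-values of the 12 genes on this side ran from 0.103 to 0.196.

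On the lower side, Wif1, a secreted inhibitor of Wnt signals, had 2.79 and 2.58 CPM in WT IP, against 33.2 and 16.9 CPM in KO IP, the widest ratio of the 12 genes with the smallest p. Ccm2l, an endothelial adaptor, had 47.9 and 39.96 CPM in WT IP and 99.7 and 126 CPM in KO IP. Anxa3, a phospholipid-binding annexin, had 75.4 and 48.99 CPM in WT IP and 167 and 152 CPM in KO IP, and Palld, an actin-associated protein, had 11.2 and 15.04 CPM in WT IP and 48.3 and 40.8 CPM in KO IP. Parp8, Tmem150a and Fnbp4 stood at -1.47, -1.28 and -1.22, none with overlap. Adjusted p-values of these 12 genes ran from 0.0992 to 0.119.

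Transcripts reported elsewhere as bound by IMP proteins had a median near that of all genes in the IP. The list of 20 had 19 tested members with a median difference of 0.04, and 5 had both WT IP libraries above both KO IP libraries, against 1 below. The median ranged from 0.06 to 0.31 when 1 library was left out. At p under 0.05 there were 0 higher and 1 lower. Igf2, the transcript that names the family, had 307 and 424 CPM in WT IP, against 295 and 458 CPM in KO IP, which overlap (-0.05 ± 0.25, adjusted p = 0.963). H19, the imprinted noncoding RNA next to Igf2, had 6500.4 and 8631 CPM in WT IP, against 3305 and 7287 CPM in KO IP, with the second KO IP library between the WT IP libraries (0.51 ± 0.32). Ucp1 (0.39), Myc (0.26), Ccnd1 (0.95) and Actb (-0.08) had p above 0.05, and Cox7b, Ndufs3 and Ndufa7 (0.50, 0.56 and 0.46) are also members of the respiratory classes. Of the IGF axis, 10 of 16 listed genes were tested, with a median of -0.10 (-0.28 without the second WT IP library). The growth factor Igf1 had 167 and 104 CPM in WT IP and 136 and 149 CPM in KO IP, and the binding protein gene Igfbp4 had 211 and 159.8 CPM in WT IP and 218 and 323 CPM in KO IP, the 1 member at p under 0.05.

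The differences followed the length of the coding sequence and the number of exons. The shortest quartile of tested coding sequences (111 to 867 bases) had a median of 0.16, the next 0.01, the third -0.07 and the longest quartile (2265 to 105639 bases) -0.15. At p under 0.05 the shortest quartile had 257 genes higher and 67 lower, and the longest 45 higher and 204 lower. Library pairs ran from 0.11 to 0.20 in the shortest and from -0.19 to -0.10 in the longest quartile, against at most 0.07 and 0.05 between libraries of a genotype. By exon number the quartile medians were 0.13, 0.06, -0.06 and -0.16. Other gene features were ordered too, over narrower ranges. Exonic length gave 0.13, 0.00, -0.06 and -0.10, and intron length 0.10, 0.00, -0.06 and -0.08. GC content of the spliced transcript gave -0.06, -0.04, 0.01 and 0.06, lowest first. The length of the 3′ UTR, where IMP proteins are mostly reported to bind, showed no such order, with medians of 0.05, -0.07, -0.03 and 0.01.

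The rank correlation across genes with the WT IP minus KO IP difference was -0.23 for coding length (10416 genes), -0.22 for exon number (10704 genes) and 0.00 for 3′ UTR length; genes share libraries and are not independent, so these describe the data. Between the WT IP libraries (first minus second) coding length gave 0.07, and between the KO IP libraries -0.06. The level in total RNA gave 0.16 with the genotype difference, -0.16 within WT IP and 0.16 within KO IP, as large within a genotype as between them. The short-gene classes did not carry the gradient alone. Without the 5 classes of ribosomal, mitochondrial ribosomal, respiratory and proteasome genes, 2404 short coding genes still had a median of 0.13, while the 200 short members of those classes stood at 0.42. With library size alone the shortest quartile stood at 0.02 and the longest at -0.30, on either side of the shifted median of all genes. Without the second KO IP library the longest quartile stood at -0.09.

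**Figure D4:**
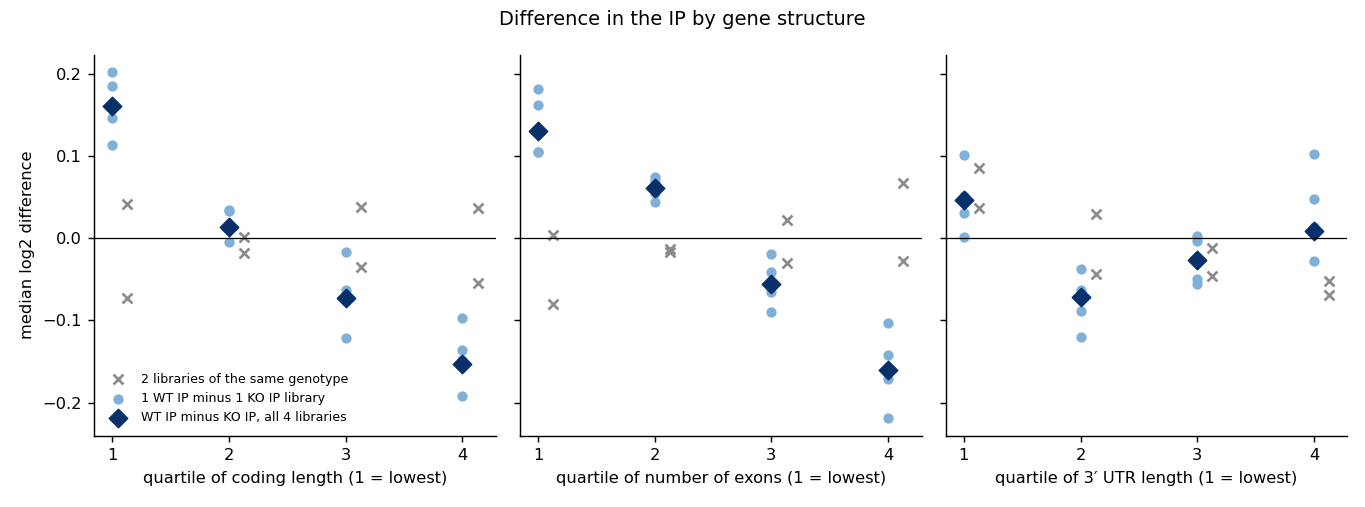
Median log2 difference (vertical axis) by quartile of coding length, exon number and 3′ UTR length, lowest quartile left; diamonds, circles and crosses are as in the plot of class medians. The diamonds descend with coding length and exon number, from 0.16 to -0.15 and from 0.13 to -0.16, and stay within -0.07 to 0.05 for the 3′ UTR.

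Densities of short motifs, only some of them linked to IMP proteins, separated the transcripts less than coding length did. CAT followed by A, C or T, counted per kilobase on the sense strand of the spliced transcript, gave quartile medians of 0.04, 0.01, -0.04 and -0.05, lowest density first. GGAC, a core of methylated adenosine sites, gave -0.02, -0.01, -0.02 and -0.00. ATTTA, the AU-rich element, gave 0.06, -0.05, -0.02 and -0.04. Such counts do not say where a protein binds.

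By annotation class, 10411 of the tested genes were protein-coding, with a median of -0.01. Processed pseudogenes had a median of 0.32 over 28 tested genes, with 1 higher and 2 lower at p under 0.05, and their reads may belong to parent genes. Few small RNAs were tested, 3 of 1899 miRNA genes, 1 of 1484 snoRNA genes and 0 of 1385 snRNA genes. Mir6236 had 2046 and 3606 CPM in WT IP and 1315 and 1349 CPM in KO IP. Gene-level counts cannot show whether these reads come from the miRNA itself or from another RNA. Replication histone genes, whose mRNAs lack a poly(A) tail, had 7 tested of 64, and Hist1h1c had 169 and 226 CPM in WT IP and 124 and 69.4 CPM in KO IP.

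The remaining lists had smaller medians or rested on few genes. Import proteins of the mitochondrial membranes (TOM and TIM) had a median of 0.22 over 20 genes, with 1 higher and 1 lower at p under 0.05, and 0.07 without the second WT IP library. The endoplasmic reticulum translocon and signal peptidase had 0.18 over 22 genes (4 higher, 0 lower), with 9 of them (40.9%) not overlapping on the higher side. Chaperones had 0.12 over 66 (5 higher, 1 lower), with 23 (34.8%) not overlapping on the higher side, against 20.3% of all genes. Without the first WT IP library the translocon stood at 0.11, and with 1 library left out the chaperones ranged from 0.06 to 0.19. Immediate early genes, the first genes switched on by stimuli, had 0.26 over 19 (2 higher, 1 lower), with 0.10 to 0.45 when 1 library was left out. Carriers of the Slc25 family had 0.16 over 34 (1 higher, 4 lower; 0.00 without the second KO IP library), other Slc transporters 0.04 over 138 (6 higher, 9 lower) and Tmem proteins 0.08 over 139 (9 higher, 5 lower). Zfp zinc finger genes had -0.13 over 189 (4 higher, 10 lower), turning to 0.06 without the second KO IP library. The snoRNA host genes had -0.23 over 10 with none at p under 0.05, replication histones 0.30 over 7 (1 higher, 0 lower; 0.57 without the first WT IP library and -0.07 without the second) and clone-based genes 0.09 over 338 (18 higher, 15 lower).

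Of the other cell type markers, those of adipocytes without Car3, which muscle also expresses, summed to 629 and 1061 CPM in WT IP and 871 and 565 CPM in KO IP. Those of smooth muscle and pericytes without Des came to 888 and 1145 CPM in WT IP and 959.8 and 1052 CPM in KO IP, and both sums overlap between the genotypes. Of the tested members, 7 of 9 adipocyte, 4 of 8 smooth muscle, 4 of 8 macrophage and 2 of 4 satellite cell markers had a positive difference. Schwann cell markers came to 321 and 483 CPM in WT IP and 542 and 535 CPM in KO IP, mast cell markers to 94.4 and 40.8 CPM in WT IP and 85.8 and 89.1 CPM in KO IP, and satellite cell markers to 158 and 180.5 CPM in WT IP and 172 and 197 CPM in KO IP. Sums for neutrophils, pancreatic acinar cells, liver, keratinocytes and neurons were at most 23.6 CPM in every IP library.

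Total RNA gives a side reading of the same classes in KO against WT muscle. There the CLK and speckle class had a median of -0.39 (KO minus WT), the nuclear lncRNAs -0.43, the cytosolic ribosomal proteins 0.27 and the collagens 0.31. This order is the reverse of that used for the IP, so equal signs mean opposite directions. The CLK and speckle class and the nuclear lncRNAs were higher in WT total RNA but lower in WT IP. Ribosomal proteins were lower in WT total RNA but higher in WT IP, while the collagens were lower in WT in both. The CLK and speckle class held 0.311%, 0.380% and 0.213% of the counts in KO total RNA and 0.311%, 0.317% and 0.870% in WT total RNA, so the third WT total RNA library stood apart. In that library the class lay 0.90 above the other WT total RNA libraries and the ribosomal proteins 0.52 below them, on log2 CPM. That is a difference within 1 genotype of about the size seen between WT IP and KO IP, in the same pair of classes; whether what sets that library apart also acts in the IP was not tested. Without it the KO minus WT medians were -0.01 for the CLK and speckle class, 0.05 for the nuclear lncRNAs and 0.08 for the ribosomal proteins, an alternative chosen after seeing the data.

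The IP difference minus the total RNA difference (WT minus KO in both) was tested in all 10 libraries with edgeR's quasi-likelihood test, and 1 of 14399 genes was called (0.00694%), Prps1l3. The CLK and speckle class had a median of -1.01 on this scale, with 31 of 32 members negative, and -0.65 with 30 negative when the third WT total RNA library was left out. The cytosolic ribosomal proteins stood at 0.75 and, without that library, at 0.59. Complex I stood at 0.52 and 0.40, the proteasome at 0.43 and 0.36 and the collagens at -0.43 and -0.31. The IMP-bound list stood at 0.36 with 15 of 19 members positive, and at 0.28 without that library, while 5360 of the 10730 genes tested in the IP were positive. For the nuclear lncRNAs the value was -1.07 with all libraries and -0.20 without that library.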

How the data were processed

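Counts of reads per Ensembl gene were used as deposited; per the submitters' processing notes, the authors used STAR and HTSeq with mm10 (GRCm38). Tool versions, annotation release and strand setting are not given in the sources used here. Antisense genes may therefore share reads. Total RNA and IP RNA of mouse skeletal muscle were sequenced after a TruSeq kit, per the labels' protocols. The values are unscaled whole-number counts. Rows for reads given to no gene were left out: 36.4% to 43.3% of the reads of the IP libraries aligned to several places, 8.62% to 10.2% lay outside genes and 5.48% to 6.03% were ambiguous.

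Low counts were removed with filterByExpr, TMM factors set the scale, and edgeR 4.0.16 (R 4.3.3) gave two-sided quasi-likelihood F tests, group as the only term, Benjamini-Hochberg adjustment over all tested genes at 0.05; the 4 IP libraries entered the fit for WT IP against KO IP, and all 10 that for the interaction. Scripts were tested on simulated data. SE were derived from the F statistic. Log2 CPM used a pseudocount of 0.5. Class medians have no test, since members are not replicates. Library pairs compare log2 CPM of 1 library each. Gene features, coordinates and symbols came from a GENCODE annotation of GRCm38, which covered 42548 of 43629 IDs; start windows came from RefSeq (GRCm38.p6). There were 34 class and 17 marker lists; 7 snoRNA host genes were not found under their listed names.

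The genes to name were the Igf2bp family (Igf2bp1 to Igf2bp3), Igf2, Igf1 and H19, then up to 12 a direction with the smallest p among genes with a mean of at least 5 CPM and no overlap between groups (clone-based and pseudogene names left out), and up to 3 members of each class with the smallest p. Some genes that this rule picks are not reported here. Further members are named for their role or an opposite value, after their values were seen. The samples, classes, lists and rules were chosen with earlier results of these data known. Replicate numbers did not pair the IP libraries: deviations of libraries with the same number had a correlation of -0.07 across genes. The alternatives were DESeq2 size factors, library size alone, no filter, a mean of at least 20 CPM, DESeq2 1.42.0, limma-voom (limma 3.58.1), a replicate block, the spread of all 10 libraries and leaving out each library.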

Additional observations from a re-analysis of the deposited data

Results flagged for a closer look

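Prps1l3, a member of the phosphoribosyl pyrophosphate synthetase family (chromosome 12, 57230412 to 57239882, GRCm38), was the gene whose IP difference departed from its total RNA difference. It had 17 and 18 counts in WT IP and 0 and 1 counts in KO IP, while total RNA had 112, 114 and 100 counts in KO and 160, 154 and 182 counts in WT. The IP difference minus the total RNA difference was 5.28 ± 0.71 on the log2 scale (SE, edgeR's quasi-likelihood test, adjusted p = 0.0415). A fitted value against so few counts depends on the prior count. In the IP comparison alone it was 5.06 ± 1.14 (adjusted p = 0.146), and the total RNA difference, KO minus WT, was 0.01 ± 0.17. The interaction had adjusted p = 0.0320 with DESeq2 size factors and 0.0431 with DESeq2, 0.258 with library size alone and 0.252 with the replicate block. Leaving out 1 library in turn gave adjusted p of 0.0581 to 0.418, lowest without the second WT total RNA library and highest without the second KO IP library.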

How the results depend on the processing

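For genes called between WT IP and KO IP (0 as reported), the number was 1 with the spread of all 10 libraries, 28 with a replicate block, 57 with DESeq2, 1 with library size alone, 103 of 18022 genes without a filter, 3 with limma-voom (Clk1, Neat1 and Rsrp1, all lower in WT IP) and 13 to 146 when 1 IP library was left out. Genes with unadjusted p under 0.05 came to 1128 as reported, 1843 with the spread of all 10 libraries, 671 with DESeq2 and 676 to 1475 when 1 library was left out. Replicate numbers did not pair the libraries, so the block is no paired analysis; with it the interaction had 0 calls, as with library size alone and with at least 20 CPM, against 17 with DESeq2 and 0 to 1 when 1 of the 10 libraries was left out.

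Of 432 class medians under 12 alternatives, 97 moved by more than the spread between libraries, among them the following. Nuclear lncRNAs stood at -0.28 with the spread of all 10 libraries, -1.15 at 20 CPM or more and -0.21 without a filter. Those settings also change which listed genes pass the filter, so their medians can rest on other members than the 11 tested as reported. The CLK and speckle class ranged from -0.83 to -0.55 over the libraries left out, ribosomal proteins from 0.28 to 0.53 (0.30 with library size alone), the proteasome from 0.21 to 0.38 (0.22 at 20 CPM or more and 0.15 with library size alone) and collagens from -0.65 to -0.42 (-0.51 at 20 CPM or more and -0.75 with library size alone). SR splicing factors stood at -0.78 at 20 CPM or more and -0.63 with library size alone, and DEAD/DEAH helicases at -0.44 with library size alone and -0.19 without the second KO IP library. Library size alone also moved the median of all genes, from -0.01 to -0.16, so class medians under it carry that shift. The shortest coding quartile had 0.17 with all 10 libraries, DESeq2, no filter or DESeq2 size factors, 0.16 with the block, 0.15 at 20 CPM or more, 0.018 with library size alone and 0.12 to 0.19 with a library left out, and the longest -0.30 with library size alone. Of the 432, 28 had the other sign, none of them in the processing, lncRNA, ribosomal, respiratory, proteasome, collagen or matrix classes.

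Of 136 named genes, 8 reversed under an alternative. Igf2bp2 stood at -0.52 with the block, -0.012 with DESeq2, -0.086 with library size alone and -0.40 with limma-voom. With 1 IP library left out, Igf2bp2 ranged from -2.04 (without the first WT IP library) to 0.88, with -0.40 without the second KO IP library, Igf2 from -0.32 to 0.31 (0.16 without the first WT IP library), Igf1 from -0.46 to 0.22, Snora43 from -0.27 to 0.61 (-0.04 without the second KO IP library), Gm23935 from -0.10 to 1.42, Snhg12 from -1.11 to 0.038 and Hist1h2bc from -0.029 to 0.91. Mir133a-2 reached 0.013 without the first KO IP library. The cause was not tested. Depth limits the single genes: 1 count is worth most in the first KO IP library.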
